A study of Rattus norvegicus with 18 samples.

Results

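The genes described here encode the proteins of the cytosolic ribosome, measured in rat heart allografts and T cells. They were chosen by name: probe sets whose only platform symbol was an Rpl or Rps number, Rplp0 to Rplp2 or Rpsa, with the brightest probe set kept for each gene. This gave 48 genes from 55 probe sets, out of 14217 genes with a single-symbol probe set. They comprise 28 proteins of the large subunit, 13 of the small subunit, Rplp0 of the stalk, and 6 paralogs (Rpl3l, Rpl7l1, Rpl26l1, Rpl39l1, Rps27l and Rps4y2). Of the 77 canonical large subunit, stalk and small subunit names looked up, 42 were found, and the other 35 were not analysed here.

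Ribosomal proteins assemble with ribosomal RNA into the large subunit, which forms peptide bonds, and the small subunit, which decodes messenger RNA. Their transcripts are among the most abundant of most cells, and most begin with a run of C and T bases, the terminal oligopyrimidine (TOP) tract, through which mTOR signalling adjusts their translation. A few paralogs replace the common protein in particular tissues, the best known being Rpl3l, which takes the place of Rpl3 in heart and skeletal muscle.

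Adult male rats were used: hearts of the strain Wistar Furth (RT1.Au) were placed in the abdomen of ACI (RT1.Aa) hosts, so donor and host differ in a class I transplantation antigen, and every graft in the series is such an allograft. The 3 groups were hosts without treatment, hosts given cyclosporine (a calcineurin inhibitor) by mouth at 10 mg/kg/day on days 0 to 2, a course called sub-therapeutic, and hosts given that course with 1 mg/kg of the allochimeric peptide [a1h1/u]-RT1.Aa into the portal vein at grafting. No vehicle injection is described for the other groups, and the untreated group was the stated baseline. Grafts and T cells were taken on days 1, 3 and 7 with 1 array for each combination, 18 in all. The labels name Wistar Furth for the T cells too, so the animal and organ they came from are not settled, and sharing of animals or pooling of RNA is not stated. The p-values below thus rest on the scatter that the fitted treatment and day terms leave among these 18 samples, or the 9 of a tissue. Part of it may be technical, and it also holds any treatment difference that varies between days.

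The arrays matched their tissue labels. All 9 measured cardiomyocyte markers were lower in T cells, with a summed intensity of 421 to 672 against 106879 to 130128 in hearts, and all 12 T cell markers were higher. B cell transcripts were present in the T cell samples too: the 5 markers measured summed to 8575 to 27844 against 466 to 1258 in hearts. So were macrophage transcripts, whose 9 markers summed to 24901 to 40564 in the T cell samples and to 15597 to 59501 in hearts. Median intensity over all probe sets was 210 to 231 in hearts and 195 to 210 in T cells, and precision is limited by how few arrays there are. One library stood apart: 6 neutrophil markers summed to 38056 in the untreated T cells of day 1 and to 1157 to 3323 in the other 8 T cell samples, so T cell results are also given without the arrays of that day or treatment. In tissue samples, fewer cells of a type and less RNA per cell cannot be told apart.

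The start of each transcript was read from RefSeq (rat build GRCr8) to show what most of these genes share besides their product. A promoter entry matched 43 of the 48 genes by symbol. The windows below hold 15 bases before and 15 bases from the annotated start, 5′ to 3′, with the longest run of C and T in capitals where it has at least 5 bases. The first set holds genes whose rises are named in the time course, with Rplp0 of the stalk and Rps6.

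Rpl12, chr3:36661925-36661954, plus strand: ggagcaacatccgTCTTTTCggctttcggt
Rpl13a, chr1:104748899-104748928, minus strand: CCTCTTCCTTTCCTaggcggctgccgaaga
Rpl21, chr12:13386139-13386168, minus strand: TTCCTTTCCgccggggcagccatcttccag
Rpl35, chr3:43165907-43165936, minus strand: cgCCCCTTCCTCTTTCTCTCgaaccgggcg
Rpl35a, chr11:81235007-81235036, minus strand: gcgggtcttgCCTTCCTCTTTCCgccatct
Rpl3, chr7:113507976-113508005, minus strand: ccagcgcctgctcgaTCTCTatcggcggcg
Rplp0, chr12:46718376-46718405, minus strand: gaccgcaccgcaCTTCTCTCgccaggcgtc
Rps23, chr2:23814502-23814531, plus strand: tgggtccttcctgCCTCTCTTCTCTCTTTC
Rps15, chr7:10068101-10068130, minus strand: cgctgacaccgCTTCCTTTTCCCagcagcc
Rps28, chr7:15311319-15311348, minus strand: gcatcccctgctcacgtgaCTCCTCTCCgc
Rps6, chr5:106420526-106420555, minus strand: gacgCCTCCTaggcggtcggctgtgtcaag

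The second set holds 5 of the 6 paralogs, for comparison with the subunit genes.

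Rpl3l, chr10:14258431-14258460, plus strand: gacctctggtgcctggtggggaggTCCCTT
Rps4y2, chr4:183000898-183000927, plus strand: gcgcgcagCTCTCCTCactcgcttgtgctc
Rps27l, chr8:76443643-76443672, plus strand: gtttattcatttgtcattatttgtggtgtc
Rpl7l1, chr9:21695703-21695732, plus strand: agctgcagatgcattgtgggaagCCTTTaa
Rpl26l1, chr10:17029014-17029043, minus strand: aaatgtcaTTTCCgggcctgcgcacacacc

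An unbroken run of at least 8 C or T bases lay within these 30 bases in 24 of 37 subunit and stalk genes (64.9%), in 1 of 6 paralogs (16.7%) and in 11.4% of all 33469 promoters of the table. The only paralog with such a run was Rps4y2. A run could lie wholly before or after the annotated start, as in Rpl13a and Rps28. A C or T stood at the annotated start itself in 22 of the 37 genes (59.5%), in 2 of 6 paralogs (33.3%) and in 40.6% of all promoters. The letters CTTTCC occurred on the sense strand of the window in 9 of the 37 genes (24.3%) against 1.24% of all promoters, and on the opposite strand in 0 against 1.30%. CTCTTT, which can overlap CTTTCC, occurred on the sense strand in 10 (27.0%) against 1.14%, and on the opposite strand in 0 against 0.992%. A match is a description of the letters in this window, and annotated starts can lie some bases away from the true ones.

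In both tissues the subunit genes were among the brightest signals on the array. A mean level above 12 on the log2(intensity + 16) scale, used throughout, was reached by 38 of the 42 subunit and stalk genes, called the bright members here. Together they made up 1.72% to 2.00% of the summed signal in hearts and 2.46% to 2.71% in T cells. All 38 lay in the top 1% of probe sets on each of the 9 T cell arrays, and 31 to 33 of them on each heart array. On 8 of the 9 T cell arrays the brightest probe set of all belonged to one of these genes. These are ranks of probe signals, not of transcripts. The bright members were picked by their level on these same arrays, so their high ranks partly follow from that choice. The other 4 subunit genes had weaker probe sets: Rpl39, which lines the exit tunnel, lay at 9.80 to 10.23 in hearts, Rpl30 at 7.11 to 7.65, Rpl28 at 6.27 to 7.06 and Rps13 at 5.97 to 7.01.

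Within a tissue the bright members moved together. Over the 9 heart arrays the correlation between 2 of them had a median of 0.88 over 703 pairs and was above 0 in 100% of the pairs, and over the 9 T cell arrays the median was 0.68 and 87.6% of the pairs were above 0. These points share arrays, scaling and days, so the values are descriptions. Their spread was small: the median SD over arrays was 0.11 in hearts and 0.06 in T cells, against 0.18 and 0.10 for all probe sets of that brightness. Rpl13a, a protein of the large subunit that also acts in an interferon-induced silencing complex, was the least like the others in T cells (r = -0.46 with the median of the rest).

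**Figure D1:**
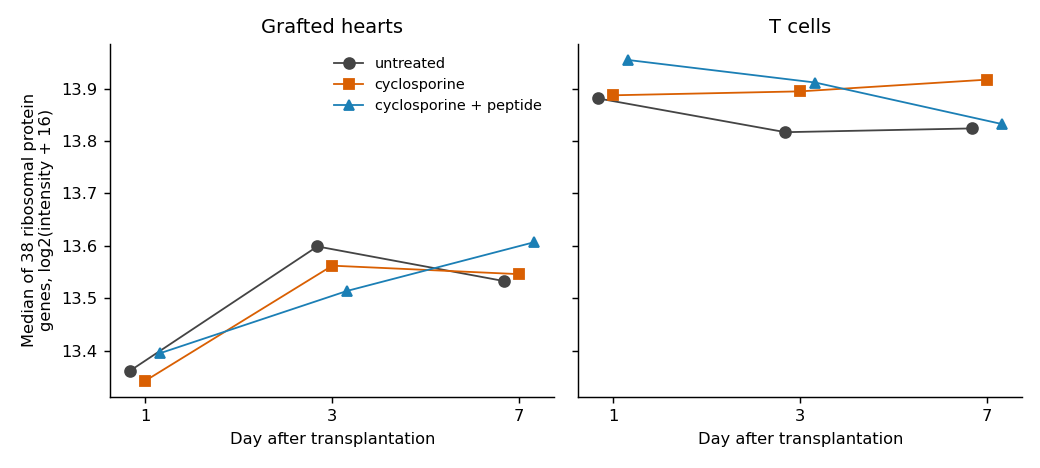
Median log2(intensity + 16) of the 38 bright ribosomal protein genes on each array (1 point per array) against the day after transplantation, by treatment, in grafted hearts (left) and T cells (right). In hearts the 3 arrays of day 1 sit at 13.34 to 13.40 and the 6 later ones at 13.51 to 13.61, and the T cell arrays sit at 13.82 to 13.95 on every day.

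The time course in the grafts asked how the ribosomal protein genes changed after transplantation. Of the 45 genes tested in hearts, 24 had risen by day 3 and 35 by day 7, each by a small amount. The median of the bright members was 13.36 in the untreated, 13.34 in the cyclosporine and 13.40 in the cyclosporine plus peptide heart on day 1. It was 13.60, 13.56 and 13.51 on day 3, and 13.53, 13.55 and 13.61 on day 7. Every day 1 heart lay below every later heart, and the 3 treatments overlapped.

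By day 3, 24 genes were higher than on day 1 and 0 were lower (limma, adjusted p below 0.05 over all 19734 probe sets tested). Of all probe sets, 14.6% were called higher and 12.9% lower, and of the 883 with a mean above 12, 23.8% and 18.9%. The median difference of the 45 genes was 0.17, against -0.00 for all probe sets. All 24 were bright members, 16 of the large subunit and 8 of the small, and all 38 bright members were higher on day 3 in 3 of 3 treatments. The arrays of the 2 days did not overlap for 37 of the 45 genes, all above, against 22.4% of all probe sets.

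Rpl13a had the largest rise. It lay at 13.08, 13.09 and 13.12 in the untreated, cyclosporine and cyclosporine plus peptide hearts on day 1, at 13.42, 13.51 and 13.45 on day 3, and at 13.41, 13.40 and 13.46 on day 7. All later hearts were above all day 1 hearts. The difference was 0.36 ± 0.04 on day 3 (SE, mean of 3 same-treatment differences, adjusted p = 0.00231) and 0.33 ± 0.04 on day 7 (adjusted p = 0.000271). Rpl21 rose by 0.30 ± 0.05 by day 3, Rpl12, a protein at the base of the stalk, by 0.29 ± 0.05, Rpl35, which lies at the exit tunnel, by 0.28 ± 0.06, Rpl35a by 0.26 ± 0.05 and Rps28 of the small subunit by 0.25 ± 0.05. Rpl5 (0.17 ± 0.04), which with Rpl11 carries the 5S rRNA and can hold back Mdm2, rose, and Rpl11 (0.12 ± 0.04, adjusted p = 0.0578) did not pass. Rplp0 differed by 0.12 ± 0.04 (adjusted p = 0.0759) and Rpsa, also known as a laminin receptor, by 0.13 ± 0.06 (adjusted p = 0.118), neither past the threshold. None of the 5 paralogs tested was called, with differences from -0.09 (Rpl3l) to 0.02 (Rpl7l1).

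The count at day 3 depended on single groups of arrays and on scaling. It was 1 (Rpl13a) without the cyclosporine arrays, 9 without the cyclosporine plus peptide arrays and 15 without the untreated arrays, with the median difference at 0.15 in the first case. The calls over all probe sets moved too, from 2878 higher to 1191, 1014 and 1986 in the same order. Centring each array on its median moved the median of all probe sets to -0.07 and that of the members to 0.10, with 10 members higher. The split of all calls moved from 2878 higher and 2540 lower to 2085 higher and 3835 lower.

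By day 7, 35 of 45 genes were higher than on day 1 and 2 were lower, against 30.9% higher and 33.8% lower of all probe sets, and 38.2% and 36.4% of those above 12. The median difference was 0.20, against -0.02 for all. All 12 bright small subunit genes were higher, as were 20 of the 26 bright genes of the large subunit and stalk. The 6 bright genes not called were Rpl7a, Rpl7, Rpl19, Rpl23, Rpl26 and Rpl34, with Rpl7a lowest at 0.04. Arrays of the 2 days did not overlap for 42 genes, 40 above and 2 below, against 33.5% and 36.8% of all probe sets. The count higher was 16 without the cyclosporine arrays and 23 without the cyclosporine plus peptide arrays, with 4562 and 4659 of all probe sets against 6100.

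Rpl12 had the largest rise by day 7. Its levels were 13.28, 13.27 and 13.30 on day 1 (untreated, cyclosporine, cyclosporine plus peptide), 13.66, 13.57 and 13.49 on day 3, and 13.59, 13.61 and 13.64 on day 7. The day 1 hearts were below all others, and the difference from day 1 to day 7 was 0.33 ± 0.05 (adjusted p = 0.000610). Rps23, which lies at the decoding site, was at 13.59, 13.59 and 13.62 on day 1 and at 13.88, 13.92 and 13.97 on day 7, a rise of 0.32 ± 0.05. Rpl3, which reaches towards the peptidyl transferase centre, rose from 13.81, 13.80 and 13.81 to 14.10, 14.09 and 14.15, by 0.31 ± 0.04. Rps15, whose tail reaches the decoding site, rose by 0.29 ± 0.06. Rpl30 rose by 0.30 ± 0.10 (adjusted p = 0.0284), a call that ended without the untreated or the cyclosporine plus peptide arrays (adjusted p = 0.111 and 0.186, the latter the highest over the alternatives). Among the other named proteins, Rps6, the target of the S6 kinases, rose by 0.20 ± 0.04, Rplp0 by 0.19 ± 0.04 and Rpsa by 0.23 ± 0.06. Rpl39 rose by 0.28 ± 0.05. Rps13 and Rpl28 were too weak in hearts to be tested. Rps13 lay at 5.97, 6.07 and 6.02 on day 1 and at 7.01, 6.78 and 6.85 on day 7 with no overlap, and Rpl28 at 6.27, 6.69 and 6.49 against 7.06, 6.86 and 6.34, with overlap.

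**Figure D2:**
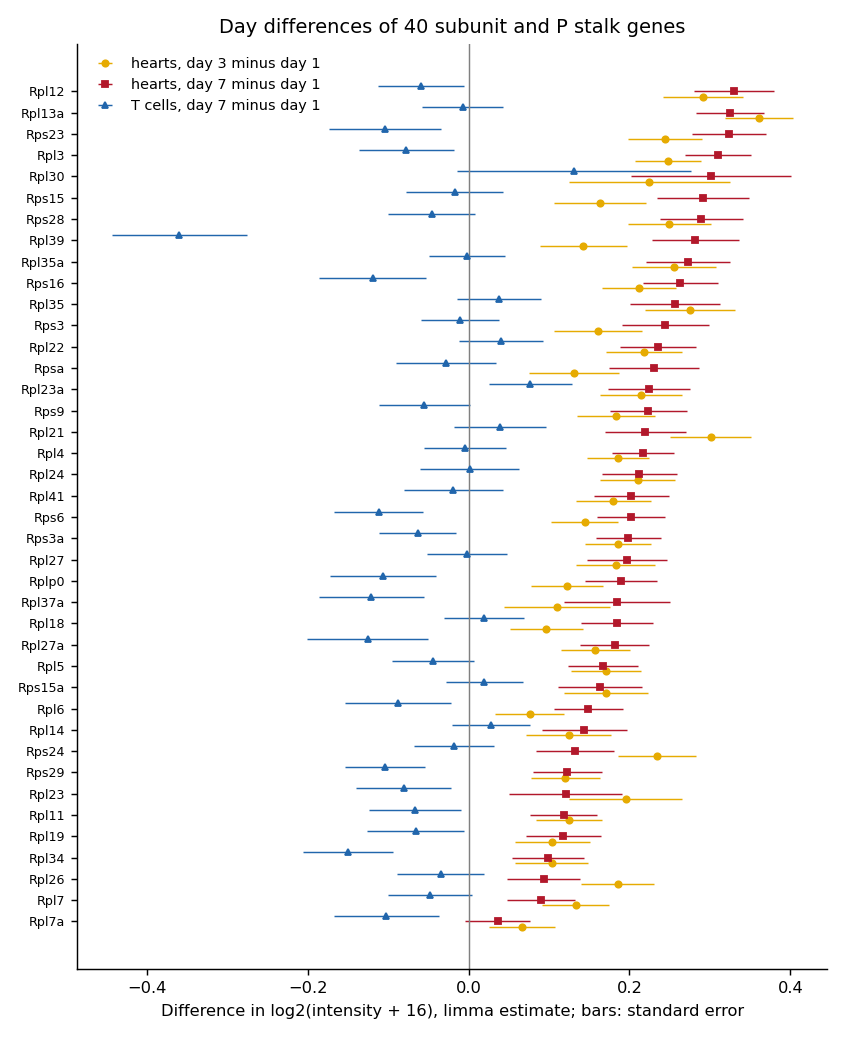
Day differences on the log2(intensity + 16) scale (horizontal axis) for the 40 subunit and stalk genes tested in hearts (vertical axis, ordered by the day 7 difference in hearts), with limma estimates as points and standard errors as bars, each a mean of 3 same-treatment differences. Heart differences lie above 0, from 0.04 (Rpl7a) to 0.33 (Rpl12) on day 7, and the T cell differences lie on both sides of 0.

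Between day 3 and day 7, 0 of the 38 bright members passed (limma; 0 also at an unadjusted p below 0.05), and their differences ran from -0.10 to 0.13. Over all 45 genes the median was 0.02, with 2 genes higher (Rps27l and Rpl7l1) and 2 lower (Rpl3l and Rps4y2), against 26.9% higher and 29.4% lower of all probe sets and 26.6% and 33.9% of those above 12. The same-treatment medians were -0.03 in untreated hearts, 0.01 with cyclosporine and 0.11 with cyclosporine plus peptide. The arrays of day 3 and day 7 did not overlap for 3 genes above and 3 below, against 29.6% and 31% of all probe sets. With arrays centred on their medians 8 genes were called higher, without the untreated arrays 5 (Rps15, Rpl7l1, Rpl37a, Rpsa and Rps3), without the cyclosporine arrays 1 (Rps27l) and without the cyclosporine plus peptide arrays 0.

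Of the paralogs tested, Rpl3l and Rps4y2 fell. Rpl3l, the muscle form of Rpl3, fell late. It lay at 11.48, 11.71 and 11.69 on day 1 (untreated, cyclosporine, cyclosporine plus peptide), at 11.14, 11.89 and 11.58 on day 3, and at 9.55, 10.35 and 10.43 on day 7. All day 7 hearts were below all earlier ones, and the untreated heart was the lowest on each day. It fell by 1.42 ± 0.13 on the log2 scale between days 3 and 7 (adjusted p = 6.30e-05) and by 1.52 ± 0.13 from day 1 (adjusted p = 2.85e-05), whereas its common counterpart Rpl3 rose from day 1 to day 7. Rps4y2, a paralog of Rps4x that the build places on chromosome 4, lay at 9.45, 9.50 and 9.27 on day 1 and at 8.80, 8.83 and 8.98 on day 7, and fell by 0.54 ± 0.10 (adjusted p = 0.00182).

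Rpl7l1, a paralog of Rpl7, went up, from 10.85, 10.87 and 10.84 on day 1 to 10.93, 10.86 and 10.82 on day 3 and 11.08, 11.02 and 11.05 on day 7. It rose by 0.18 ± 0.05 between days 3 and 7 (adjusted p = 0.0137) and by 0.20 ± 0.05 from day 1 (adjusted p = 0.00708), near the members' median of 0.20. Rps27l, a p53-induced paralog of Rps27, lay at 8.49, 8.54 and 8.39 on day 3 and at 8.80, 8.70 and 8.76 on day 7, a rise of 0.28 ± 0.09 (adjusted p = 0.0325), but its day 1 values of 8.63, 8.35 and 8.65 left the day 7 minus day 1 difference of 0.21 ± 0.09 short of the threshold (adjusted p = 0.0818). Leaving out the untreated or the cyclosporine plus peptide arrays ended the call of Rps27l between days 3 and 7 (adjusted p = 0.103 and 0.162, range over alternatives 0.0196 to 0.162), and leaving out the cyclosporine or the cyclosporine plus peptide arrays ended that of Rpl7l1 (adjusted p = 0.0881 and 0.135, range 0.00528 to 0.135). Rpl26l1 differed by 0.06 ± 0.11 from day 1 to day 7, and Rpl39l1 was below the filter on every fit, at 5.80 to 6.89 in hearts.

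**Figure D3:**
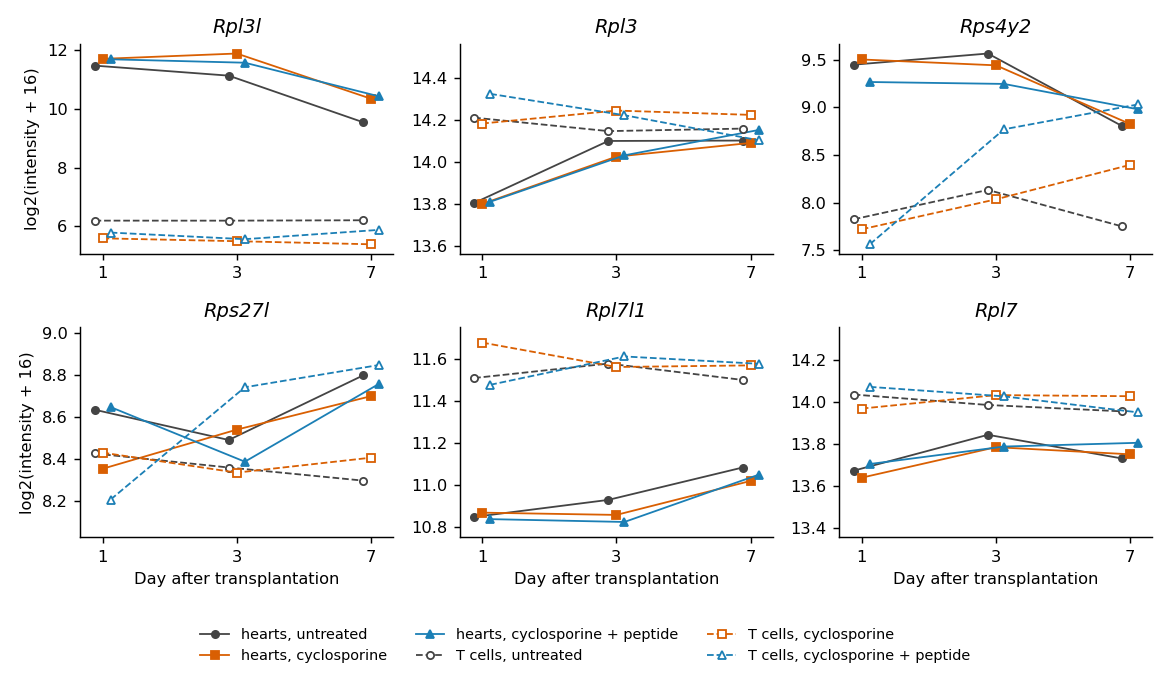
Log2(intensity + 16) of 4 paralogs and of Rpl3 and Rpl7 on each array (1 point per array, vertical axes differ) against the day after transplantation, hearts with filled symbols and solid lines, T cells with open symbols and dashed lines, coloured by treatment. Rpl3l falls in hearts to 9.55 to 10.43 on day 7 while Rpl3 rises to 14.09 to 14.15.

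Other measures moved with day in the same hearts. Actin control probe sets gave a 3′ over 5′ ratio of 1.84 to 2.44 on day 1, 1.64 to 1.87 on day 3 and 1.41 to 1.43 on day 7, while the GAPDH ratio was 1.495 to 1.65 over all hearts. Summed intensity of the 9 macrophage markers was 15597 to 16584 on day 1, 23029 to 30524 on day 3 and 55487 to 59501 on day 7. That of the 12 T cell markers was 1600 to 2519, 2125 to 3242 and 20635 to 25266, and that of the 10 proliferation markers 2679 to 4281, 6609 to 9371 and 10523 to 12870. The 9 cardiomyocyte markers summed to 126523 to 130128, 116726 to 129293 and 106879 to 118493, and of them 1 was called higher and 5 lower on day 7 than on day 1, with a median of -0.23. The 7 fibroblast and matrix markers summed to 49588 to 55034, 82665 to 90620 and 52861 to 74685, and 5 of them were called higher on day 3 (median 0.76). The 6 endothelial markers summed to 11189 to 12157, 10143 to 11020 and 4842 to 6259, and all 6 were called lower on day 7 than on day 1 (median -1.01). The 6 neutrophil markers summed to 5110 to 11859, 5830 to 12321 and 1529 to 2414, with 5 called lower on day 7 (median -1.79). Shares of all probe sets called against day 1 were 14.6% higher on day 3, and 30.9% higher and 33.8% lower on day 7. No marker list was at 0 on any array. The part of RNA quality and of these cell types in the ribosomal protein and Rpl3l differences was not tested.

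The rest of the translation machinery did not move as a block in the grafts. Of 16 translation factors and other TOP transcripts tested, 10 were higher by day 3 and 0 lower (median 0.21), and 12 higher and 1 lower by day 7 (median 0.25). Among them Eef1a1, which brings aminoacyl-tRNA to the ribosome, rose by 0.33 ± 0.04 by day 3, and Naca, a chaperone at the exit tunnel, by 0.45 ± 0.05 by day 7, whereas the helicase subunit Eif4a2 fell by 0.42 ± 0.06. Genes of ribosome biogenesis went down first: 0 of 53 were higher and 22 lower on day 3 (median -0.19), among them Emg1, an rRNA methyltransferase (-0.53 ± 0.06), and Rrp12 (-0.67 ± 0.08). From day 3 to day 7, 29 of the 53 rose and 2 fell (median 0.21), against 26.9% higher and 29.4% lower of all probe sets. Against day 1 on day 7 there were 11 higher and 12 lower. Of 14 genes of RNA polymerase I and its factors, 1 was higher and 2 lower on day 3, with the subunit gene Polr1b at -0.45 ± 0.07, and 2 higher and 3 lower on day 7. Of 27 genes of translation control, 4 were higher and 2 lower on day 3, and 9 and 9 on day 7. The muscle elongation factor Eef1a2 fell by 0.76 ± 0.06 by day 7. These lists were put together with earlier results of the data known. For differences from day 1 their shares stand beside 14.6% higher and 12.9% lower of all probe sets on day 3, and 30.9% and 33.8% on day 7.

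In T cells the same genes showed no day difference past the threshold. By limma 0 of 46 were called between days 1 and 3, days 3 and 7, or days 1 and 7, with 2, 0 and 4 at an unadjusted p below 0.05. Of all probe sets, 0% were called in the first and second comparison, and 0.437% were higher and 0.139% lower in the last. The medians were -0.01, -0.03 and -0.03. For day 7 minus day 1 the untreated, cyclosporine and cyclosporine plus peptide medians were -0.03, 0.04 and -0.14. Rpl39 had the lowest value, at 11.56, 11.56 and 11.64 on day 1 and 11.32, 11.19 and 11.17 on day 7 without overlap, a difference of -0.36 ± 0.08 (adjusted p = 0.0791). The highest were Rps4y2 (0.69 ± 0.26, adjusted p = 0.162) and Rpl28 (0.65 ± 0.16, adjusted p = 0.0898). Rps4y2 was at 7.83, 7.72 and 7.56 on day 1 and at 7.75, 8.40 and 9.03 on day 7: both treated samples were above their day 1 values and the untreated one was not. Without the untreated arrays 0 members were called in any of the 3 comparisons, and the last median was -0.03. Of all probe sets 0 were called in those fits too, so this count says nothing particular to the members. Over the same days the B cell markers summed to 14681 to 27844 on day 1 and 8575 to 10856 on day 7, and 4 of the 10 proliferation markers were called higher on day 7; their part in these values was not tested.

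An interaction term over all 18 arrays compared the day 7 minus day 1 difference between the tissues. It was lower in T cells than in hearts for 30 of 47 genes and higher for 2 (adjusted p below 0.05), against 23.5% lower and 23.2% higher of all 22318 probe sets. Among the 643 probe sets above 12 the shares were 45.1% lower and 18% higher with a median of -0.18, against a median of -0.22 for the 47 genes. Among genes that passed the filter in both tissues the lowest were Rpl39 (-0.64 ± 0.10), Rps23 (-0.43 ± 0.08), Rpl12 (-0.39 ± 0.07), Rpl3 (-0.39 ± 0.07) and Rps16 (-0.38 ± 0.08). Rps4y2 was higher (1.23 ± 0.30). The counts include Rps13 among the lower and Rpl3l among the higher genes, which entered through T cells and hearts respectively and lay below the filter in the other tissue, so the size of their differences is not read here. The count lower was 14 without the cyclosporine plus peptide arrays, 19 without the cyclosporine arrays and 21 without the untreated arrays, where 2 were higher. Of all probe sets 5247 were lower, and 3783, 3656 and 4362 in the same order. Without the cyclosporine arrays Rps4y2 was not called (adjusted p = 0.0765, range over alternatives 0.00371 to 0.0765).

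**Figure D4:**
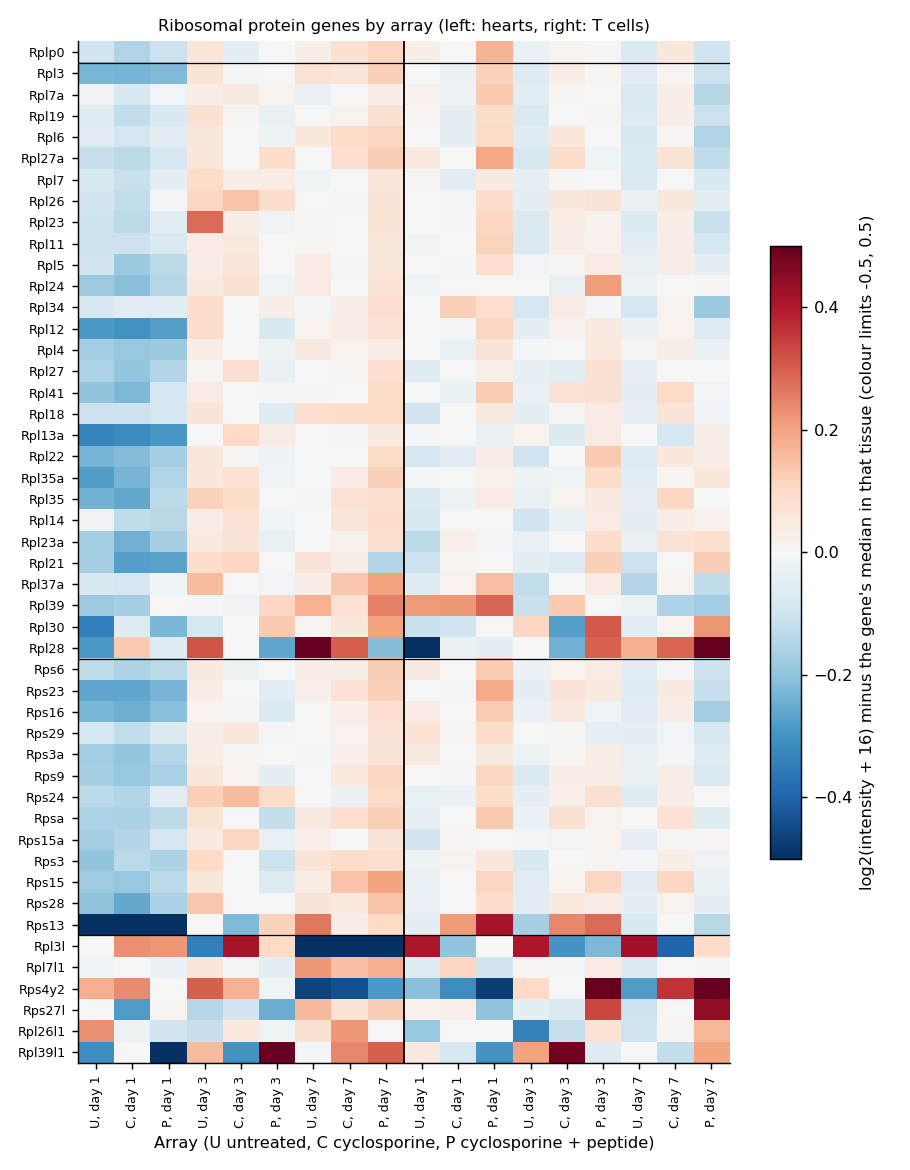
Level of each of the 48 genes (rows, grouped from top to bottom as stalk, large subunit, small subunit and paralogs) on each array (columns, hearts left and T cells right), as log2(intensity + 16) minus the gene's median in that tissue. Colours stop at -0.5 and 0.5, which some values of Rpl3l, Rps4y2, Rpl39l1, Rps13 and Rpl28 pass. The day 1 hearts are blue for most subunit genes, and Rpl3l is blue in the day 7 hearts.

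The treatment comparisons asked whether cyclosporine, alone or with the peptide, changed these genes against untreated hosts. No member passed in either tissue, and of all probe sets 0% were called in each of the 6 treatment comparisons (limma). At an unadjusted p below 0.05 there were 1, 2 and 1 members of 45 in hearts (cyclosporine, cyclosporine plus peptide, and the peptide group against cyclosporine), beside 2287, 3157 and 954 of 19734 probe sets. In T cells there were 0, 6 and 0 of 46, beside 2216, 4631 and 855 of 19454.

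In hearts the medians were -0.01, 0.01 and 0.02 for the 3 comparisons. The largest difference was that of Rpl3l, which was higher with cyclosporine by 0.23, 0.75 and 0.80 on days 1, 3 and 7, or 0.59 ± 0.13 (adjusted p = 0.198), and with cyclosporine plus peptide by 0.22, 0.44 and 0.88, or 0.51 ± 0.13 (adjusted p = 0.201). Both comparisons share the untreated arrays. At the other end Rpl21 differed by -0.13 ± 0.05 with cyclosporine plus peptide (adjusted p = 0.275) and Rps27l by -0.11 ± 0.09 with cyclosporine, both against untreated.

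In T cells the differences from untreated were small and mostly positive, 42 of 46 with cyclosporine (median 0.06) and 44 of 46 with cyclosporine plus peptide (median 0.06). Over all probe sets 10865 and 10394 of 19454 were positive, with medians of 0.02 and 0.02. Among those with a mean above 12, 532 and 488 of 842 were positive, with medians of 0.03 and 0.03. By day the members' medians were 0.01, 0.07 and 0.09 with cyclosporine and 0.10, 0.09 and -0.01 with cyclosporine plus peptide. After quantile normalization they were 0.04 and 0.03, against 0.03 and 0.03 for all probe sets. The highest members with cyclosporine plus peptide were Rps4y2 (0.55 ± 0.26, adjusted p = 0.236), Rpl28 (0.50 ± 0.16, adjusted p = 0.142), Rpl26l1 (0.29 ± 0.09, adjusted p = 0.129) and Rps13 (0.28 ± 0.12, adjusted p = 0.205). The lowest with cyclosporine was Rpl30 (-0.10 ± 0.15). Without the day 1 arrays 2 paralogs were called higher with cyclosporine plus peptide than untreated, Rps4y2 at 0.96 (adjusted p = 0.0314) and Rps27l at 0.47 (adjusted p = 0.0380). Calls over all probe sets moved too in that fit, from 0 to 1118 higher and 1371 lower. The members' medians were then 0.08 with cyclosporine and 0.04 with cyclosporine plus peptide. The 9 macrophage markers had medians of -0.49 and -0.54 in the same comparisons, the 5 neutrophil markers tested -1.73 and -1.08, the 12 T cell markers 0.22 and 0.23, the 10 proliferation markers -0.48 and -0.16 and the 4 erythroid markers -0.81 and -0.56, with 0 called in each; their part in the ribosomal protein values was not tested. No member's treatment difference depended on the tissue past the threshold (limma, 0.00448% of all probe sets in each interaction). Without the day 1 arrays 0 members and 0 of all probe sets were called. The lowest adjusted p, 0.0826 for cyclosporine and 0.0580 for cyclosporine plus peptide, belonged to Rpl3l, which lay below the filter in T cells.

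The comparison of the tissues asked where the ribosomal protein genes were higher. Of 47 genes tested over 18 arrays, 40 were higher in T cells and 2 lower, against 47.9% higher and 35.5% lower of all probe sets, and 49.5% and 35.8% of those above 12. The counts include Rps13 and Rpl28 among the higher genes, which entered through T cells and did not pass the filter in hearts, and Rpl3l among the lower, which did not pass it in T cells. The median was 0.39, against 0.15 for all probe sets. Centring on array medians moved the median of all probe sets to 0.25 and that of the members to 0.49. Without the day 1 arrays the median was 0.32, with 38 higher and 2 lower. Of all probe sets 10146 were then higher and 7283 lower, against 10692 and 7929 with all arrays. Of the 38 bright members 35 were higher. The 5 genes that did not pass were Rplp0 (0.10 ± 0.05, adjusted p = 0.0587), Rpl7a, Rpl27a, Rpl30 and Rps27l.

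Among genes that passed the filter in both tissues, Rpl39 (1.38 ± 0.08) and Rpl26l1, a close paralog of Rpl26 (1.23 ± 0.07), had the largest positive differences, each without overlap. Rpl39 lay at 9.80 to 10.23 in hearts and at 11.17 to 11.64 in T cells. Rps13 lay at 5.97 to 7.01 in hearts (median 6.75 of 9 arrays) and at 8.81 to 9.39 in T cells (median 8.97), and Rpl28 at 6.27 to 7.06 and 7.48 to 8.90. For these the heart level is below the filter, so no size is given. Among the bright members Rpl21 (0.94 ± 0.05) and Rpl35a (0.77 ± 0.04) led. The 9 bright members with the lowest heart levels (median 12.71) had a median difference of 0.69 and a median T cell level of 13.43. The other 29 (median 13.61 in hearts) had 0.26 and 13.98. The part of the upper end of the signal scale in this was not tested. Bright members with a run of 8 or more C or T bases at the start had a median of 0.49 (22 genes) and those with a shorter run 0.25 (12 genes), while both had 0.20 for day 7 minus day 1 in hearts. These values are descriptions.

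Rpl3l went the other way, at 5.39 to 6.21 in T cells against 9.55 to 11.89 in hearts. Its T cell level is below the filter, so no size is given. Rps4y2 was lower by 1.09 ± 0.19 on the log2 scale, though its arrays overlapped, at 7.56 to 9.03 against 8.80 to 9.57. Rpl7l1 was higher by 0.64 ± 0.05.

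**Figure D5:**
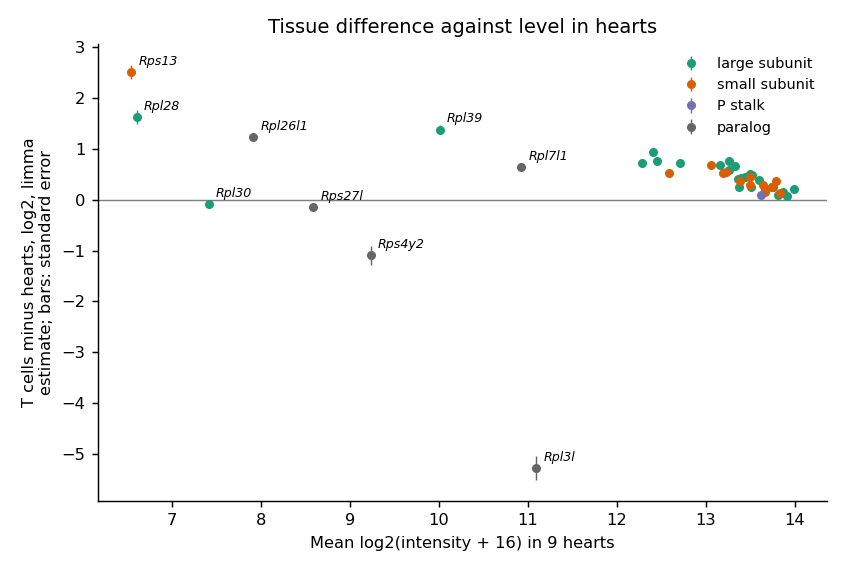
T cells minus hearts on the log2(intensity + 16) scale (vertical axis, limma estimate with standard error as bars) against the mean level in the 9 hearts (horizontal axis) for the 47 genes tested, coloured by role. The bright members lie between 0.07 and 0.94. Rps13 and Rpl28 (upper left) were below the filter in hearts and Rpl3l (lowest point) in T cells, so their plotted sizes are those of a weak signal on 1 side.

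Other parts of the machinery were higher in T cells too: 15 of 16 translation factors and other TOP transcripts (median 0.65), 51 of 53 biogenesis genes (median 0.76) and 13 of 14 genes of RNA polymerase I and its factors (median 0.95), with 0 lower in each, against 47.9% higher of all probe sets. Of translation control genes 15 were higher and 6 lower. Myc was at 1.28 ± 0.09, whereas Mycn was at -1.54 ± 0.10 and the muscle factor Eef1a2 at -4.22 ± 0.15. Ddit4 and Sesn1 had larger positive differences than Myc. The part of these genes in the ribosomal protein differences was not tested.

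For 6 genes more than 1 probe set carried the symbol, and they mostly moved the same way with different sizes. The 3 of Rpsa gave day 7 minus day 1 differences in hearts of 0.23 ± 0.06, 0.34 ± 0.05 and 0.61 ± 0.05, the last 2 from probe sets marked as sharing sequence with other transcripts. The weaker probe set of Rps24 gave 2.27 ± 0.14 for T cells minus hearts against 0.45 ± 0.04 for the brighter one, and that of Rpl7 rose by 0.56 ± 0.11 in hearts by day 7 where the brighter one gave 0.09 ± 0.04 (adjusted p = 0.0915). Ribosomal protein genes have many processed pseudogenes, so signal of related sequences in any of these probe sets was not tested.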

How the data were processed

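RNA of 9 heart allografts and 9 T cell samples was hybridised to 18 rat arrays. The values the authors deposited are intensities on a linear scale, with software and normalization not given in the sources used. Of these, 771 (0.138%) lay below 0. Those were set to 0 and all values used as log2(intensity + 16), unscaled, which understates changes of weak genes. Control probe sets, 57 in number, were dropped. Each fit kept probe sets that exceeded the array's 40th percentile on 3 or more of its arrays. Names came from the platform annotation, and none from a probe set with several symbols.

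Tests were limma 3.58.1 in R 4.3.3, with trend and Benjamini-Hochberg adjustment over all probe sets tested, two-sided, called at an adjusted p below 0.05. Treatment and day were fitted as factors to each tissue (4 residual degrees of freedom), with tissue added over all arrays (12), or with tissue interactions (8). The script was tested on simulated data. The members, lists and rules for naming genes were chosen with earlier results of these data known: in each comparison the 6 largest changes past the threshold in each direction, or with fewer than 5 past it those and the 4 highest and lowest, and always the paralogs, the stalk gene and Rpsa. Alternatives were 2 scalings, 2 pseudocounts, 2 filters, other probe set choices, other moderation, leaving out each treatment or day, and, added after seeing the data, the bright members alone. Promoter windows were taken from RefSeq (GRCr8).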

Additional observations from a re-analysis of the deposited data

Results flagged for a closer look

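The difference between day 7 and day 1 was tested for dependence on the tissue, and 32 genes passed: 2 with a higher value in T cells than in hearts and 30 with a lower one. Of all probe sets 23.2% were higher and 23.5% lower, and of those with a mean above 12, 18% and 45.1%. The higher ones were Rpl3l at 1.48, which did not pass the filter in T cells, so that this value restates its fall in hearts against a weak signal, and Rps4y2 at 1.23, which fell in hearts and had higher values in the treated T cell samples on day 7. The lower ones with the largest size were Rps13 at -1.13, which did not pass the filter in hearts, Rpl39 at -0.64, Rps23 at -0.43, Rpl12 at -0.39, Rpl3 at -0.39 and Rps16 at -0.38, all of which had higher levels in hearts on day 7 than on day 1. No explanation was weighed.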

How the results depend on the processing

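Calls rested on 9 arrays per tissue, 4 residual degrees of freedom and no second array for any combination, and the counts moved when a group of arrays was left out. For hearts, members higher on day 3 than day 1 numbered 24, 10 with array medians centred, 15 without the trend, and 1 to 15 with a treatment left out, beside 2878, 2085, 2696 and 1014 to 1986 of all probe sets. Members higher on day 7 than day 3 numbered 2, 8 with centring, 0 to 5 with a treatment left out (all probe sets 5315, 6027 and 3293 to 4634), and 0 among the bright members alone, where 0 were lower; the median difference of all 45 members ran from -0.017 (without the cyclosporine plus peptide arrays) to 0.053 with a treatment left out. Members higher on day 7 than day 1 numbered 35, and 16 to 32 with a treatment left out (all probe sets 6100 and 4562 to 5274). The 2 lower on day 7 than day 1, the 2 lower in T cells and the 2 higher in the day by tissue interaction are paralogs, so each count is 0 among the bright members alone. That interaction had 30 lower members, 18 without the trend and 14 to 21 with a treatment left out, and 1 to 2 higher; of all probe sets 5247 were lower, 5104 without the trend and 3656 to 4362 with a treatment left out. In T cells alone, members higher with cyclosporine plus peptide numbered 0 to 2 with a day left out, beside 0 to 1118 of all probe sets. In the treatment by tissue interactions Rpl3l, which was below the filter in T cells, was called in 2 settings. It was the 1 member lower for cyclosporine with a pseudocount of 1, beside 0 higher and 3 lower of all probe sets. It was also the 1 lower for cyclosporine plus peptide with the 60th percentile filter, beside 42 higher and 37 lower. The main fits had 0 higher and 1 lower of all probe sets in each. Of the values of single named genes under alternatives, 470 kept direction and side of the threshold, 12 lost the call and 0 reversed. Except for the construction of the bright members alone, the cause of these changes was not tested. Treatment and day stand in every fit as terms, so day differences are already taken within treatment and treatment differences within day. Each heart sample has a T cell sample of the same treatment and day, but these matches were not fitted as blocks in the tissue comparison. The labels give no replicate numbers that could serve as a further block.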
